A study of Mus musculus with 6 samples.

Results

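DNA mismatch repair removes wrongly paired bases and small loops that replication leaves behind. A MutS dimer binds the mismatch, a MutL dimer is then recruited and cuts the newly made strand, and exonuclease 1 removes the stretch that holds the error before DNA polymerase delta fills the gap. Dividing cells of the bone marrow express this machinery, and mice that lack some of its components are prone to lymphoid tumours. The 6 genes described here were chosen by name from the pathway, with earlier results of these data known. *Msh6* and *Msh3* encode the mismatch-specific subunits of the dimers MutSα and MutSβ. *Pms2*, *Pms1* and *Mlh3* encode the subunits that tell the MutL dimers apart, and *Exo1* encodes exonuclease 1. These members are 6 of the 39179 genes in the count files, and all 6 were among the 15980 genes abundant enough to be tested.

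Bulk RNA sequencing was carried out on the bone marrow of 6 littermate mice aged 3 months, all of them injected intraperitoneally 3 times with poly(I:C) at 10 µg/g and analysed 6 weeks later. The 3 *MxCDX2* mice carried both *RsCDX2*, a knockin at *Rosa26* of human *CDX2* that is silent until Cre cuts out a stop sequence, and *Mx1Cre*, a Cre recombinase driven by the interferon-inducible *Mx1* promoter that is active in many cell types besides hematopoietic stem cells. The 3 controls had different genotypes: control 1 carried *RsCDX2* alone, control 2 carried *Mx1Cre* alone and control 3 was wild type, so no control genotype was replicated. Library sizes were 38646101 to 49899650 reads assigned to genes, and the members had 350 to 4892 reads each per mouse.

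The gene that the transgene matches, *Cdx2*, had 4, 0 and 0 reads in controls 1 to 3 and 152, 155 and 183 reads in *MxCDX2* mice 1 to 3, as their labels say. The marrow was strongly changed in composition. All 7 erythroid markers fell (median log2 fold change -3.46) and their summed normalized count was 725317 to 788635 in controls and 18913 to 86116 in *MxCDX2* mice. All 6 monocyte markers rose (median 2.07), from sums of 56883 to 68867 up to sums of 283193 to 349211. Among the other lists, 3 of 7 B cell markers, 2 of 7 neutrophil markers, 1 of 5 T and NK cell markers, 1 of 4 megakaryocyte markers and 1 of 5 stromal markers fell, and none rose. Of all tested genes, 11.8% fell and 9.91% rose. The neutrophil list was mixed, with 5 negative log2 fold changes and 2 positive ones that did not pass, *Prtn3* (0.78) and *Mpo* (0.31). No defining marker was at 0 in all mice. The wild-type control stood apart from the other mice on the second principal component (15.9% of the variance), with a summed megakaryocyte marker count of 246680 against 20541 to 29658 in the other controls. In whole marrow, fewer cells of a type and less RNA per cell cannot be told apart, and the part of these shifts in the values given here was not tested.

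The sequence around the start of the genes is shown first, because *Pms1* and *Pms2* each start next to a gene on the opposite strand. RefSeq promoter windows (GRCm38.p6, 250 bases before the start to 50 after it) were matched for 5 of the 6 members: *Msh6*, *Msh3*, *Pms2*, *Pms1* and *Mlh3*. *Exo1* was the member not matched. Each run below reads 5′ to 3′ on the strand of the member, and capitals mark a searched word or its reverse complement. The words searched, on both strands, were of 4 kinds: the E2F-type words TTTCCCGC, TTTCGCGC, TTTGCCGC and TTTGGCGC, the CCAAT box (CCAAT), the GC box (GGGCGG) and a core word of CDX binding sites (TTTAT). Overlapping matches, of the same word or of different words, were all counted.
Msh6 (chr17:87974930-87975049, + strand): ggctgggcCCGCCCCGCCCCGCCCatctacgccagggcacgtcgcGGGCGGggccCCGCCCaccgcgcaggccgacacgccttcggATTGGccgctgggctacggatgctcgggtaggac
Mlh3 (chr12:85270600-85270719, - strand): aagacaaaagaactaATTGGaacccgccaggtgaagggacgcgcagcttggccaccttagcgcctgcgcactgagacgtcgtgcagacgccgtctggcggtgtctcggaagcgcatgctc
Pms1 (chr1:53297029-53297094, - strand): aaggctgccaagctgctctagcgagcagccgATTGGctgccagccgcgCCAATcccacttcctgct
Pms2 (chr5:143909848-143909963, + strand): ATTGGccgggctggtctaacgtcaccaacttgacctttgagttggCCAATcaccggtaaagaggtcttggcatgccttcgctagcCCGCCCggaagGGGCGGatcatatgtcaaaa

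The *Pms1* run is the stretch between the RefSeq starts of *Pms1* and *Ormdl1*. The *Pms2* run is the stretch between the starts of *Pms2* and *Aimp2* in GENCODE, and its last base lies 38 bases before the RefSeq start of *Pms2*. The *Pms1* window held 2 CCAAT boxes, both in the run, and the *Pms2* window held 3, of which 1 lies past the end of the run. Of all 32851 promoter windows, 37.4% held a CCAAT box and 35.7% a GC box. The *Msh6* run held 5 GC boxes, some of them overlapping, and 1 CCAAT box. The window of *Mlh3* held 1 CCAAT box and no GC box. An E2F-type word, the kind bound by the regulators of S-phase genes, was present in the windows of *Msh3* and *Msh6* and in 2.26% of all windows. The *Msh6* site is shown here with the E2F-type word in capitals.
Msh6 (chr17:87975056-87975081, + strand): cctcccgacTTTCCCGCcagcggcgg

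In *Msh6* the word lies just inside the transcript, at positions 16 to 23. The CDX word was found once, in the window of *Msh3*, and occurred in 40% of all windows. These matches describe letters in the sequence and do not show binding.

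None of the 6 mismatch repair genes passed the test for a difference between *MxCDX2* and control marrow. With edgeR's quasi-likelihood test, 0 of 6 had an adjusted p under 0.05 in either direction and 0 of 6 had an unadjusted p under 0.05, while 21.7% of all tested genes passed the adjusted threshold (9.91% higher and 11.8% lower in *MxCDX2* mice). Under the rule of the study's methods, an absolute log2 fold change above 1 with an adjusted p under 0.05, 0 of 6 members and 13.6% of tested genes were called. DESeq2 and limma voom also called 0 of 6. The median log2 fold change of the 6 genes was -0.17, against 0.00 over all tested genes, and 5 of the 6 were lower in *MxCDX2* mice. The 95% interval of every member lay inside a 2-fold change in either direction, the widest bounds being 0.633-fold for *Exo1* and 1.74-fold for *Mlh3*.

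**Figure D1:**
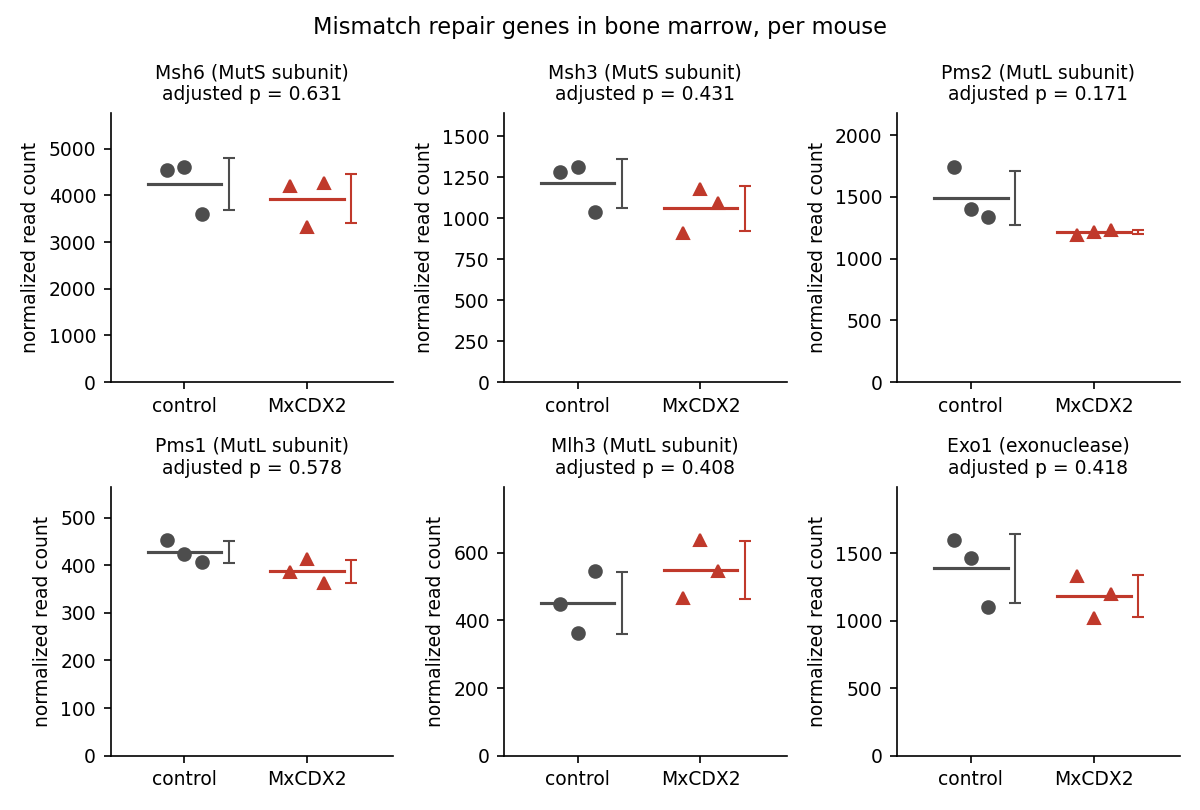
Normalized read count (vertical axis, linear from 0) of the 6 mismatch repair genes in each control (circles) and *MxCDX2* mouse (triangles), in label order from left to right. Lines are group means and bars the SD over 3 mice. The groups overlap in every panel except *Pms2*, where the *MxCDX2* mice sit between 1195 and 1234 and the controls between 1337 and 1743.

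*Msh6* (ENSMUSG00000005370, chr17:87975062-87990892, GRCm38, + strand) encodes the subunit that directs MutSα to single mismatches and short loops. It was the most abundant of the 6 genes. Its normalized read count, the count scaled to a common effective library size, was 4534, 4611 and 3607 in controls 1 to 3 and 4209, 3322 and 4259 in *MxCDX2* mice 1 to 3. The 2 lowest values, in the wild-type control and in *MxCDX2* mouse 2, came from different groups. The mean was 4251 ± 559 in controls and 3930 ± 527 in *MxCDX2* mice (SD, n = 3). The log2 fold change was -0.11 ± 0.15 (SE), with an adjusted p of 0.631 by edgeR's quasi-likelihood test.

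*Msh3* (ENSMUSG00000014850, chr13:92211872-92355003, - strand) encodes the subunit that directs MutSβ to larger loops. Its normalized read count was 1284, 1315 and 1041 in the controls and 911, 1178 and 1093 in *MxCDX2* mice. The groups overlapped, with the wild-type control below 2 of the *MxCDX2* mice. The log2 fold change was -0.19 ± 0.16 (SE), with an adjusted p of 0.431 by edgeR's test.

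*Pms2* (ENSMUSG00000079109, chr5:143909964-143933968, + strand) encodes the endonuclease subunit of MutLα, the main MutL dimer of somatic cells. Its normalized read count was 1743, 1400.1 and 1337 in the controls and 1195, 1217 and 1234 in *MxCDX2* mice. It was the only member whose groups did not overlap, a pattern of lower values that 20.7% of all tested genes also showed (21.4% showed the opposite one). The 3 *MxCDX2* mice were within a narrow band (1215 ± 19.4, SD, n = 3) and the controls were spread wider (1493 ± 219, SD, n = 3), with control 1 far above the others. The log2 fold change of -0.30 ± 0.14 (SE) did not pass, with an adjusted p of 0.171 by edgeR's test.

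*Pms1* (ENSMUSG00000026098, chr1:53189187-53297018, - strand) encodes the MutL subunit of MutLβ, whose part in repair is less clear. It had 452, 424 and 407 normalized reads in the controls and 386, 412 and 363 in *MxCDX2* mice. The groups overlapped by 1 mouse, and the log2 fold change was -0.14 ± 0.16 (SE) with an adjusted p of 0.578 by edgeR's test.

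*Mlh3* (ENSMUSG00000021245, chr12:85234520-85270599, - strand) encodes the endonuclease subunit of MutLγ, best known for resolving crossovers in meiosis. It had 447, 363 and 545 normalized reads in the controls and 465, 637 and 546 in *MxCDX2* mice. It was the only member whose mean was higher in *MxCDX2* mice, but the wild-type control lay within their range. The log2 fold change was 0.28 ± 0.22 (SE), with an adjusted p of 0.408 by edgeR's test.

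*Exo1* (ENSMUSG00000039748, chr1:175880581-175913489, + strand) encodes the 5′ to 3′ exonuclease that removes the strand with the error. It had 1597, 1469 and 1100.4 normalized reads in the controls and 1334, 1025 and 1198 in *MxCDX2* mice. The wild-type control was below 2 of the *MxCDX2* mice. The log2 fold change was -0.23 ± 0.18 (SE), with an adjusted p of 0.418 by edgeR's test.

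The wild-type control had the lowest control value for 5 of the 6 genes, *Mlh3* being the exception with its highest control value there. Without this mouse, the log2 fold change of *Pms2* was -0.35 (adjusted p = 0.0974, unadjusted 0.0354, edgeR) and that of *Exo1* was -0.35 (adjusted p = 0.117, unadjusted 0.0457, edgeR), and still 0 of 6 members passed. Without control 1, the values were closer to 0, at -0.16 for *Pms2* (adjusted p = 0.467, edgeR), -0.10 for *Exo1* (adjusted p = 0.769, edgeR) and -0.10 for the median of the 6 genes.

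Levels between genes were compared per kilobase, as normalized reads divided by length. With the principal coding transcript of each gene as its length, the order in controls was *Msh6* (999.9 ± 132, SD, n = 3), *Msh3* (307 ± 37.99), *Pms2* (272 ± 39.9), *Exo1* (178 ± 33.1), *Pms1* (140.0 ± 7.56) and *Mlh3* (82.7 ± 16.7). In *MxCDX2* mice the order of the means was the same, with 924 ± 124, 269 ± 34.5, 222 ± 3.53, 152 ± 19.9, 127 ± 8.10 and 101 ± 15.7 (SD, n = 3). The ranges over the controls overlapped for *Msh3* and *Pms2*, and for *Exo1* and *Pms1*. Within each control, though, *Msh3* was above *Pms2* and *Exo1* above *Pms1*. In *MxCDX2* mouse 2, *Exo1* (131) was below *Pms1* (135). *Msh6* was above every other member and *Mlh3* below every other member in each control. With all exons of a gene joined, the order below *Msh6* changed to *Pms2* (184), *Exo1* (165), *Msh3* (108), *Mlh3* (59.8) and *Pms1* (56.7), where the joined exons of *Msh3* span 11254 bases against 3946 for its principal transcript, and those of *Pms1* 7542 against 3054. The order of the 5 genes below *Msh6* therefore depends on the length used, and the first place of *Msh6* does not. On the joined scale *Msh6* was at the 83.2 percentile of tested genes in controls and the other 5 members lay between the 28.6 and 46.9 percentiles.

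Pairs of members were also compared as a ratio of read counts within a mouse, which does not depend on library scaling. These ratios were not corrected for gene length, so they are not shares of subunits. The ratio of *Msh6* to *Msh3* was 3.53, 3.51 and 3.46 in the controls and 4.62, 2.82 and 3.89 in *MxCDX2* mice. The controls differed by little although their genotypes differed, and the *MxCDX2* mice lay on both sides of them. The mean log2 ratio differed by 0.08 (exact permutation test, two-sided p = 0.70, adjusted over 4 ratios 0.70). With 3 mice a group this test cannot give a p below 0.10.

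The ratio of *Pms2* to *Mlh3* was 3.90, 3.85 and 2.45 in the controls and 2.57, 1.91 and 2.26 in *MxCDX2* mice. It had the largest shift of the 4 ratios, a mean log2 difference of -0.58, but the wild-type control lay among the *MxCDX2* mice (exact permutation p = 0.20, adjusted 0.533). The ratio of *Pms2* to *Pms1* was 3.85, 3.30 and 3.29 in controls and 3.10, 2.95 and 3.40 in *MxCDX2* mice (difference -0.14, exact permutation p = 0.30, adjusted 0.533). The ratio of *Exo1* to *Msh6* was 0.352, 0.318 and 0.305 in controls and 0.317, 0.308 and 0.281 in *MxCDX2* mice (difference -0.11, exact permutation p = 0.40, adjusted 0.533). None of the 4 ratios passed.

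**Figure D2:**
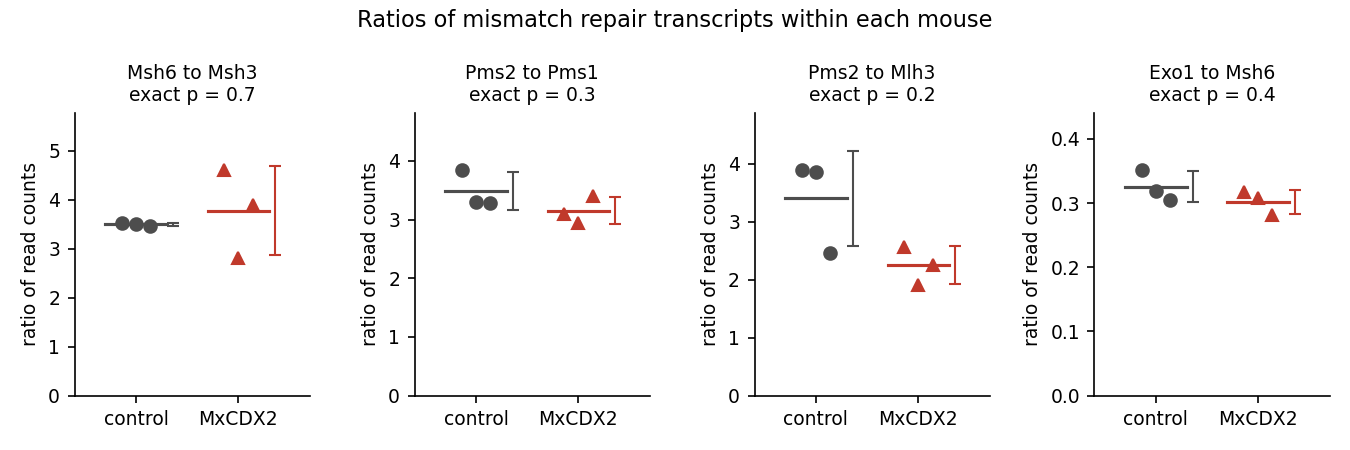
Ratio of read counts between pairs of mismatch repair genes within each mouse (vertical axes, linear from 0), for controls (circles) and *MxCDX2* mice (triangles). Lines are means and bars the SD over 3 mice. The 3 controls nearly coincide for *Msh6* to *Msh3* (3.46 to 3.53) and the *MxCDX2* mice spread from 2.82 to 4.62.

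Across the 6 mice, *Msh6* and *Exo1* moved together (Pearson r = 0.92, exact permutation p = 0.0111, adjusted over 15 pairs 0.146, and Spearman rho = 0.89, exact permutation p = 0.0333, adjusted 0.25). *Mlh3* ran opposite to *Msh6* (r = -0.86, exact permutation p = 0.025, adjusted 0.146, and rho = -0.83, exact permutation p = 0.0583, adjusted 0.292) and to *Exo1* (r = -0.86, exact permutation p = 0.0292, adjusted 0.146, and rho = -0.89, exact permutation p = 0.0333, adjusted 0.25). None of the 15 pairs passed after adjustment. Without the 2 mice farthest from the median of the first gene of each pair, r was 0.80, -0.79 and -0.92 over the 4 mice left. The genes share each mouse's library and its scaling.

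Tested genes whose log2 profile over the 6 mice was most similar to that of a member are given as a description. They were *Arf6* and *Trdj2* for *Msh6* (r = 0.99 for both), *Gm28043* for *Msh3* (0.99), *Ckap2* and *Nck1* for *Pms2* (0.99 for both), *Syne1* and *Naa35* for *Pms1* (0.99 and 0.98), *Zfyve16* and *Tbc1d7* for *Mlh3* (0.99 for both), and *Eif1ad* and *Mfap1a* for *Exo1* (1.00 and 0.99). They were picked from 15979 candidates over only 6 points. No member was among the 2 genes most like another.

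A list of partner genes was then examined, most of them genes that work with MutS and MutL at the replication fork. The list also held the meiotic MutS genes *Msh4* and *Msh5*, the single-strand binding gene *Ssbp1*, and *Hmgb1*. *Ssbp1* (log2 fold change 0.29) and *Hmgb1* (-0.16) did not pass. Of 18 partner genes, 17 were tested, since the meiotic *Msh4* had almost no reads. One rose and 1 fell at an adjusted p under 0.05, and 15 did not pass, so 2 of 17 were called where 21.7% of all tested genes were. Their median log2 fold change was -0.16, close to that of the members, and 13 of 17 were lower in *MxCDX2* mice.

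*Rfc4*, a subunit of the clamp loader that places PCNA on DNA, had 2183, 1810.2 and 1514 normalized reads in controls and 1321, 1176 and 1216 in *MxCDX2* mice. It fell by 0.57 on the log2 scale (SE 0.16, adjusted p = 0.0445, edgeR), and its groups did not overlap. *Pold4*, the smallest subunit of DNA polymerase delta, had 1523, 1718 and 1592 normalized reads in controls and 2238, 1920.2 and 2194 in *MxCDX2* mice. It rose by 0.39 (SE 0.11, adjusted p = 0.0492, edgeR). Both calls were close to the threshold. *Pold4* was lost with the replicate number as a block (adjusted p = 0.0919, edgeR) and without any 1 of the 6 mice, and *Rfc4* was lost without any 1 mouse other than the wild-type control.

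The other clamp loader subunits (*Rfc1*, *Rfc2*, *Rfc3* and *Rfc5*) had log2 fold changes between -0.16 and 0.01. The sliding clamp itself, *Pcna*, which binds both MutS and MutL proteins, had a log2 fold change of -0.40 ± 0.13 (SE, adjusted p = 0.0692, edgeR), and all *MxCDX2* mice were below all controls. *Lig1*, the ligase that seals the repaired strand, had -0.45 ± 0.13 (SE, adjusted p = 0.0535, edgeR). Without the wild-type control both passed (adjusted p = 0.0204 for *Pcna* and 0.0115 for *Lig1*, edgeR). Neither passed with any other mouse left out (adjusted p = 0.107 to 0.208 for *Pcna* and 0.115 to 0.160 for *Lig1*, edgeR). The 3 subunits of replication protein A, which coats the exposed single strand, had values of -0.17 (*Rpa1*), -0.33 (*Rpa2*) and -0.21 (*Rpa3*), and none passed. The catalytic polymerase subunit *Pold1* had -0.24 and the accessory subunits *Pold2* and *Pold3* had 0.13 and -0.05. *Msh5*, a meiotic MutS gene, had 321, 332 and 352 normalized reads in controls and 169, 323 and 194 in *MxCDX2* mice. The difference of -0.55 on the log2 scale did not pass (adjusted p = 0.219, edgeR).

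**Figure D3:**
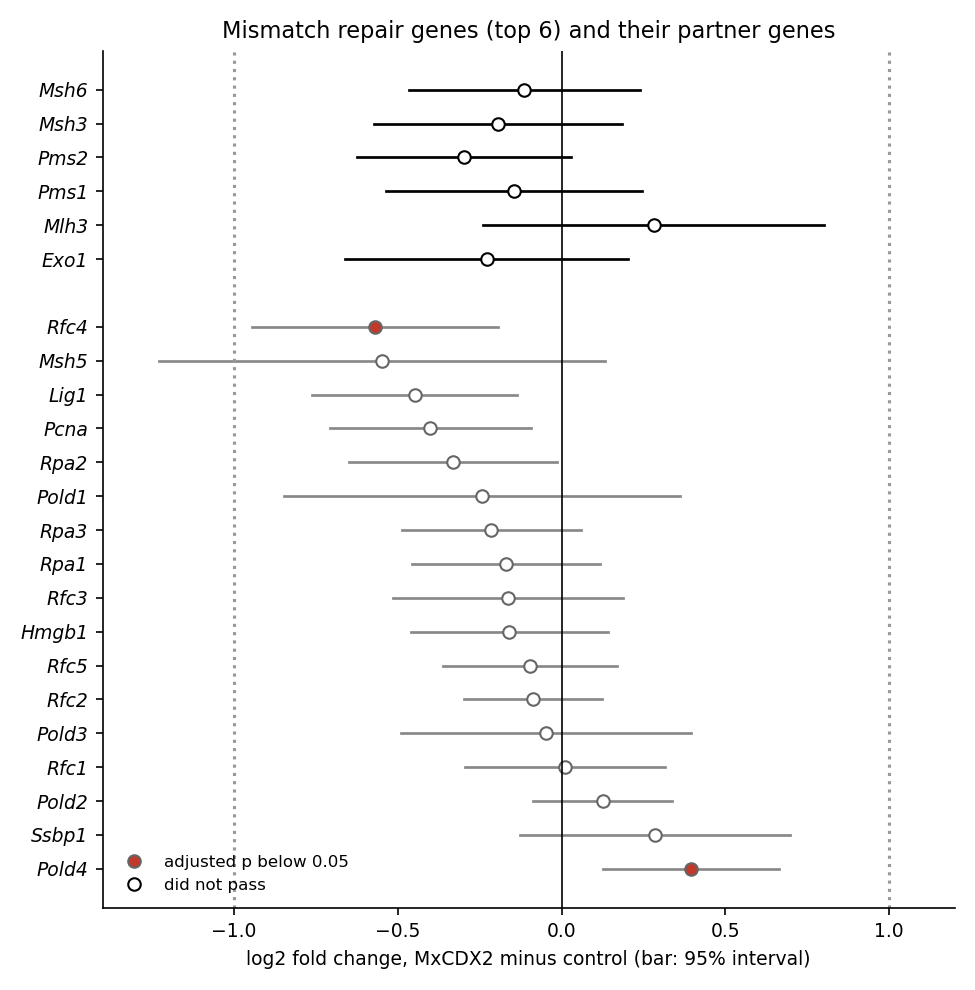
Log2 fold change of *MxCDX2* minus control (horizontal axis) for the 6 mismatch repair genes (top) and 17 partner genes (below, in order of value). Bars are 95% intervals, filled points have an adjusted p under 0.05, and dotted lines mark a 2-fold change. All 6 member intervals cross 0 and stay inside the dotted lines, and the filled points are *Rfc4* at -0.57 and *Pold4* at 0.39.

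Several mismatch repair genes are expressed mostly in dividing cells, so genes of S phase and mitosis were set beside the members. Of 20 such genes 9 fell and 0 rose, where 11.8% of all tested genes fell and 9.91% rose. Their median log2 fold change was -0.44 against -0.17 for the members. The largest fall was that of *Ccne1*, cyclin E1, which drives entry into S phase. It had 3789, 3522 and 3123 normalized reads in controls and 1541, 795 and 1224 in *MxCDX2* mice, and fell by 1.55 (SE 0.24, adjusted p = 0.00695, edgeR). *Rrm2*, the ribonucleotide reductase subunit made in S phase, fell by 1.09 (SE 0.20, adjusted p = 0.0123, edgeR), and *Cdc6*, which loads the replicative helicase, fell by 0.91 (SE 0.19, adjusted p = 0.0181, edgeR). The largest positive value, 0.12 for the helicase subunit *Mcm6*, did not pass (adjusted p = 0.586, edgeR). The count of 9 changed to 14 without the wild-type control, to 3 without control 1, control 2 or *MxCDX2* mouse 2, to 5 without *MxCDX2* mouse 1 and to 1 without *MxCDX2* mouse 3. Whether the members and these genes differ in response was not tested.

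**Figure D4:**
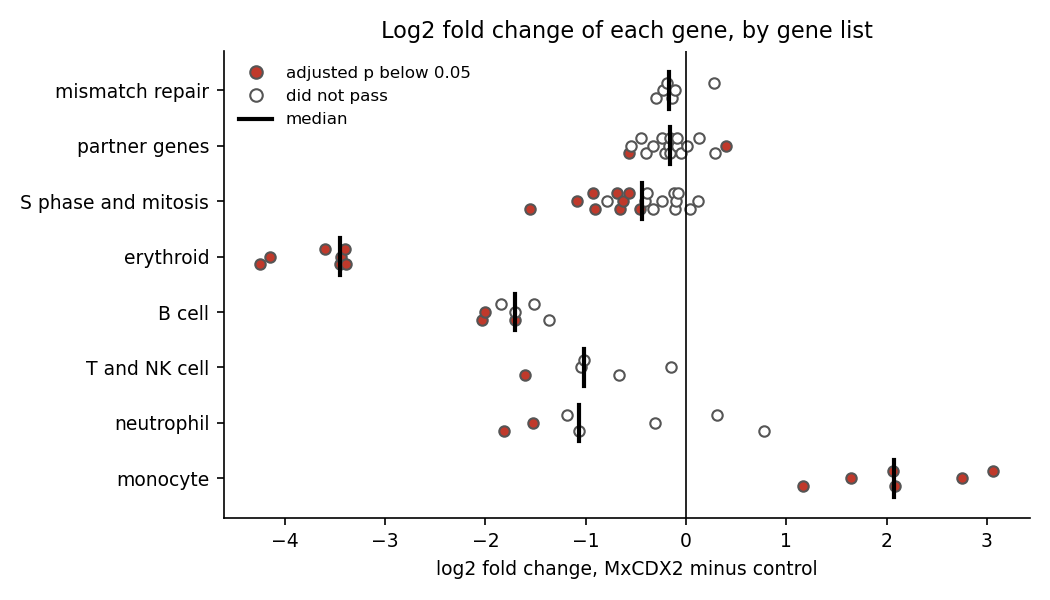
Log2 fold change of *MxCDX2* minus control (horizontal axis) for each tested gene of the mismatch repair, partner, S phase and mitosis, and cell type marker lists (rows). Filled points have an adjusted p under 0.05 and black bars are list medians. The mismatch repair genes lie between -0.30 and 0.28 with no filled point, while the erythroid markers lie below -3.39 and the monocyte markers between 1.17 and 3.06.

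Lastly, genes that overlap a member or start beside one were examined, because shared sequence could affect their counts and shared starts could link their levels. By GENCODE starts on the opposite strand, *Ormdl1*, a regulator of sphingolipid synthesis, starts 77 bases from *Pms1*, and *Aimp2*, a scaffold of the aminoacyl-tRNA synthetase complex, starts 117 bases from *Pms2*. *Ormdl1* had a log2 fold change of -0.11 (adjusted p = 0.571, edgeR) and *Aimp2* one of -0.15 (adjusted p = 0.574, edgeR), beside -0.14 for *Pms1* and -0.30 for *Pms2*. *Fbxo11*, whose exons share 34 bases with the end of *Msh6*, had -0.13 (adjusted p = 0.486, edgeR). *Rsph10b*, a gene of motile cilia on the same strand as *Pms2* that shares 85 exon bases with it, had 61.3, 60.6 and 94.8 normalized reads in controls and 19.1, 13.7 and 4.35 in *MxCDX2* mice. It fell by 2.55 (SE 0.55, adjusted p = 0.0198, edgeR), and did not pass without *MxCDX2* mouse 2 (adjusted p = 0.065, edgeR). Its level was small beside that of *Pms2*, and reads in the shared bases of such pairs cannot be assigned with certainty. Such reads may have been left out of both genes as ambiguous, a class with 2.99 to 3.16% of reads per library. Of 12 neighbours considered, 7 were in the count files, and of these *Gm17135*, *Mir6938* and *Gm23805* had too few reads to be tested. The other 5 were not analysed here, among them *Gm42421*, which shares 394 exon bases with *Pms2* on the same strand, and *Gm28778*, which starts 93 bases from *Pms1*.

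**Figure D5:**
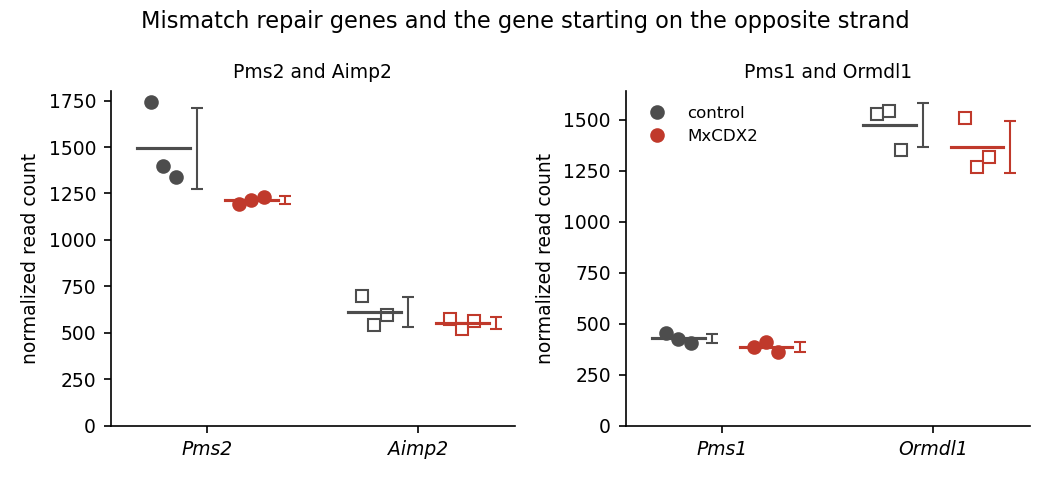
Normalized read count (vertical axes, linear from 0) of *Pms2* and *Pms1* (filled circles) and of the gene that starts next to each on the opposite strand (open squares), in controls (grey) and *MxCDX2* mice (red). Lines are means and bars the SD over 3 mice. *Aimp2* and *Ormdl1* overlap between groups, while the *MxCDX2* values of *Pms2* (1195 to 1234) lie below its control values (1337 to 1743).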

How the data were processed

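Total RNA from mouse bone marrow was sequenced as stranded, polyA-selected libraries. The deposited files hold raw read counts per Ensembl gene for each mouse, which the authors made with STAR 2.5 (mouse genome GRCm38) and HTSeq 0.6.1. The strand setting of the counting is not given in the sources used here. Shares of reads not assigned to a gene were 12.2 to 17.1% per library. These were made up of reads outside any gene (9.22 to 14.1%) and ambiguous reads that match several genes (2.99 to 3.16%). Symbols and positions came from GENCODE M21 (GRCm38), with 37693 of 39179 gene identifiers matched.

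Counts were filtered (filterByExpr), scaled (TMM) and tested across all 15980 genes with edgeR 4.0.16 (quasi-likelihood, *MxCDX2* against control, no covariate) in R 4.3.3, with Benjamini-Hochberg adjustment over all genes. DESeq2 1.42.0 and limma 3.58.1 (voom) served as alternatives, as did other scalings, filters, the replicate block and each mouse left out. "Rose" and "fell" mean an adjusted p under 0.05. p-values measure only the spread between these mice. The method was tested on simulated data. Ratios of counts were compared with exact permutation tests. Promoter sequences were from RefSeq (GRCm38.p6).

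The members and gene lists were chosen with earlier results of these data known. Named genes were all members, partner genes that passed, the largest rise and fall of the S-phase list, neighbours of the members and the 2 genes most like each member. Other genes were named for their role or after their values were seen. Some genes are not reported here.

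Replicate numbers were compared across groups. *MxCDX2* mice carry a number in their titles, and controls were numbered by their order in the sample labels. Deviations from the group means correlated at 0.169, 0.286 and 0.182 for mice 1, 2 and 3 of each group, against a mean of -0.107 for other pairs, so the block was fitted and its value is given where it changed a call.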

Additional observations from a re-analysis of the deposited data

How the results depend on the processing

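The count of 0 of 6 mismatch repair genes was the same under all alternatives run, by either call rule, and *Pms2* had the lowest adjusted p of any of them, 0.0974 without the wild-type control. The log2 fold changes of *Msh3*, *Pms1*, *Pms2* and *Exo1* stayed negative and that of *Mlh3* positive throughout. Leaving out 1 mouse moved *Pms2* between -0.35 and -0.16 and *Exo1* between -0.35 and -0.10, closest to 0 without control 1. Scaling by total counts moved the median of all genes to 0.12, the median of the 6 members to -0.047 and *Msh6* to 0.0061, which lies below that shift of all genes. The 2 partner genes called became 1 with limma voom, DESeq2 size factors or total counts, 0 with every gene of at least 1 count kept, and 0 to 3 with 1 mouse left out. With at least 10 counts required in every sample the count stayed at 2, with *Lig1* (adjusted p = 0.0454, edgeR) in place of *Pold4*. With the replicate block the partner count was 1, *Pold4* (0.39) was no longer called, and the S-phase and mitosis count was 8 in place of 9, and the block changed the call of no member, nor of *Rfc4*, *Pcna*, *Lig1*, *Rsph10b*, *Ccne1* or *Mcm6*. It was not run for single genes beyond these. The 9 S-phase and mitosis genes ranged from 1 to 14 with 1 mouse left out. Over all genes, 2177 were called under the rule of the study's methods, 2900 with DESeq2, 611 when tested against a log2 fold change of 1, and 1205 to 2406 with 1 mouse left out, the lowest without *MxCDX2* mouse 3. The difference in log2 ratio of *Msh6* to *Msh3* was -0.079 without *MxCDX2* mouse 1 and ranged from -0.079 to 0.28 without 1 mouse. The cause of these changes was not tested.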
